A study of Mus musculus with 12 samples.

Results

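The 37 genes described here act in the cell division cycle, in the copying of DNA or in the p53 and stress response. They were chosen by name from the 24062 genes of the count tables. The rule held no measured value, but earlier results of these data were known. Adult hepatocytes rest outside the cell cycle, and a cell that enters it first makes growth regulators such as Myc and D-type cyclins, then E2F factors, replication proteins and, before division, mitotic cyclins and kinases. Mitotic genes share promoter elements through which a repressor complex holds them silent in resting cells. In rodent liver, activators of the nuclear receptor CAR induce Cyp2b10 and can push hepatocytes into division, which is why these genes were followed after BIBB-515, an inhibitor of lanosterol synthase.

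All mice were C57BL/6J (B6) females with no genetic change. They arrived at 6 weeks of age, acclimated for 2 weeks and ate the control diet, with 15% of its calories from fat, 65% from carbohydrate and 20% from protein, for 3 days before the start. For the next 10 days they ate either this diet or the matched one that delivered BIBB-515 at 55 mg/kg of body weight. The study had 11 mice per group, and the liver RNA of 6 control mice and 6 BIBB-515 mice was used here. Control mice carry the replicate numbers 1 to 6 and BIBB-515 mice 6 to 11. The study housed several mice per cage, and the labels do not name the cages. The tests here treat each mouse as independent.

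Reads counted on genes lay between 22764819 and 27914647 per control mouse, with a median of 25188376, and between 24223939 and 31058370 per BIBB-515 mouse, with a median of 27056289. Between any 2 libraries of a group the gene counts differed beyond sampling noise (chi-square per degree of freedom 12.7 or more). Levels are given as CPM, counts scaled to a common library total with TMM factors, so that 1 CPM was 21.4 to 32.2 counts. The label liver fits the markers of hepatocytes, of which 7 of 8 are in the tables and Alb, the albumin gene, was the most abundant per length at 58783 RPKM (CPM per kilobase) in control mice. Of the 37 genes, 35 reached 1 CPM in at least 2 of the 12 mice, as 12481 of all genes did, and these were tested. Ccne2 and Bub1 did not. A gene is said to have risen or fallen when its FDR, the Benjamini-Hochberg adjusted p of edgeR's quasi-likelihood test over all tested genes, was under 0.05.

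After BIBB-515 the liver had more RNA of Gadd45b, Myc, E2f1 and Pold2, while the genes of mitosis, most of the replication machinery and the cyclins did not pass the test. These 4 of 35 tested genes (11.4%) passed, against 13.7% of all tested genes, so their number is near the background. All 4 were higher, where 7.18% of all tested genes were higher and 6.48% lower. At an unadjusted p under 0.05 there were 7 higher and 1 lower, 22.9% of the 35, below the 29.7% of all tested genes. DESeq2, limma-voom and edgeR's likelihood ratio test likewise called 4 higher and 0 lower. The median log2 fold change of the 35 was 0.16, beside -0.01 over all tested genes, and 26 of 35 (74.3%) had a positive value, beside 47.1%. That median depended on single mice, at 0.09 without control mouse 1, 0.10 without BIBB-515 mouse 6 and 0.26 without control mouse 5, and with a mouse left out the positive values numbered 22 to 29. In 4 of the 35 every BIBB-515 mouse lay above every control mouse, beside 4.35% of all tested genes, and in 0 every one lay below, beside 2.72% (either way 7.07%). Of the 31 genes that did not pass, 25 had a log2 fold change that turned sign or moved by over 1.5 times without some mouse. This measure is relative to each gene's own value, so values near 0 meet it easily. Genes that pass the test are picked for a large change over its error, so the 0 of the 4 that passed is no separate support. Bulk RNA cannot tell fewer cells of a type from less RNA per cell, and the same holds for more.

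**Figure D1:**
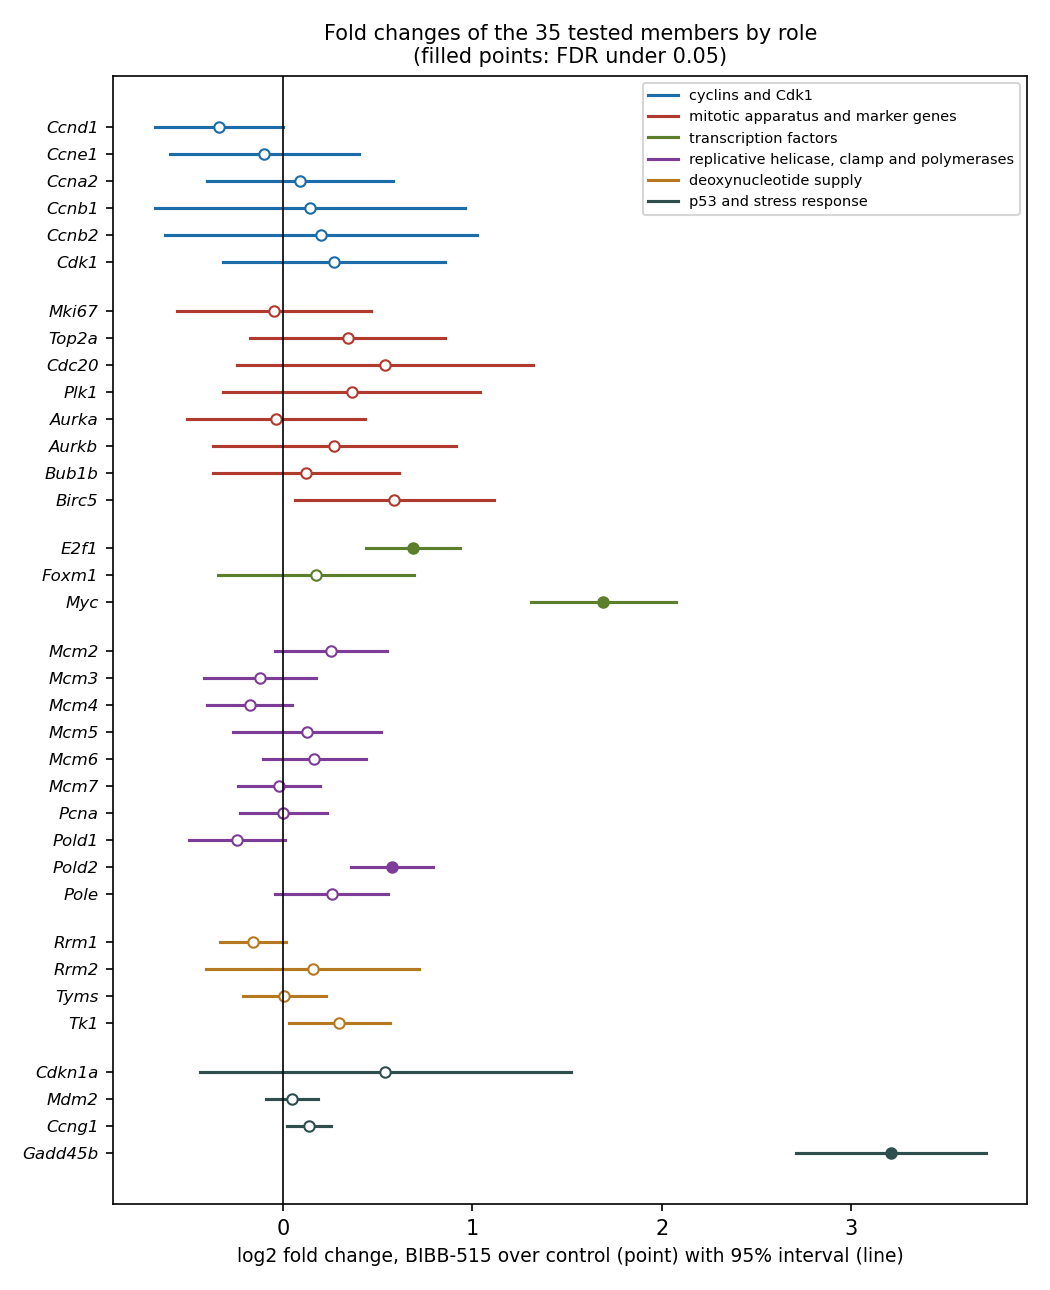
Log2 fold change (BIBB-515 over control, 6 mice each) of the 35 tested genes as points with 95% intervals as lines, colored by role. Filled points mark Gadd45b at 3.21, Myc at 1.69, E2f1 at 0.69 and Pold2 at 0.58, which passed an FDR of 0.05.

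Gadd45b encodes a small stress-inducible protein that binds kinases of the MAP kinase cascade and is known as an early response gene of CAR activation in mouse liver. It lies on chromosome 10 from 80930091 to 80932204 (mm10). Control mice had 1.69 CPM at the lowest, 2.71 at the median and 3.69 at the highest, and BIBB-515 mice had 17.1, 21.7 and 38.4. BIBB-515 mice 11 and 6 stood highest and mice 7, 8 and 9 lowest among the treated, and all 6 were far above the highest control, mouse 2. The mean rose 9.29-fold from 2.62 ± 0.705 to 24.3 ± 8.50 CPM (SD, n = 6 each), a log2 fold change of 3.21 (95% interval 2.71 to 3.71, FDR 7.49e-07 from edgeR's quasi-likelihood test). Each of its 4 exon intervals separated the groups without overlap, with mean ratios of 8.49 to 9.64. No 50-base word of Gadd45b is found in another gene's transcript.

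Myc encodes the transcription factor that sets cell growth and ribosome production in motion. Its position is chromosome 15 from 61985341 to 61990361 (mm10). Its lowest, median and highest values were 4.13, 6.64 and 8.46 CPM in control mice and 16.6, 20.0 and 27.0 CPM in BIBB-515 mice. The groups did not overlap, BIBB-515 mice 11 and 10 were highest, and control mice 1, 2 and 3 were the lowest of their group. Myc rose 3.23-fold, from 6.49 ± 1.91 to 20.9 ± 4.00 CPM (SD, n = 6 each), with a log2 fold change of 1.69 (95% interval 1.31 to 2.08, FDR 3.07e-05 from the same test). The 4 exon intervals of Myc separated the groups as well, with mean ratios of 3.18 to 3.28.

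E2f1, the factor that switches on replication genes at the start of S phase, lies on chromosome 2 from 154559400 to 154569892 (mm10). It had 2.03, 2.27 and 2.76 CPM as lowest, median and highest value in control mice, from 47 to 66 counts, and 3.39, 3.72 and 4.53 CPM in BIBB-515 mice, from 83 to 127 counts. BIBB-515 mouse 8 stood above the rest of its group, and the lowest BIBB-515 mouse was still above the highest control. The rise was 1.61-fold, from 2.34 ± 0.308 to 3.76 ± 0.412 CPM (SD, n = 6 each), a log2 fold change of 0.69 (95% interval 0.44 to 0.94, FDR 0.00151 from the same test). Among its 8 exon intervals, only the 2 nearest the 3' end separated the groups without overlap, and the mean ratios ran from 0.816 to 1.91.

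Foxm1 encodes the factor that activates mitotic genes late in the cycle. It ran from 1.14 over a median of 1.54 to 2.76 CPM in control mice and from 1.21 over 1.76 to 2.70 CPM in BIBB-515 mice. The groups overlapped almost fully, with control mice 1, 2 and 3 and BIBB-515 mouse 9 at the low end. Its log2 fold change was 0.17 (95% interval -0.34 to 0.69, FDR 0.679 from the same test), between 0.04 without BIBB-515 mouse 7 and 0.36 without control mouse 5.

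Pold2 encodes the accessory subunit of DNA polymerase delta, the polymerase of the lagging strand. The gene spans chromosome 11 from 5872180 to 5878256 (mm10). Control mice had 8.64, 10.6 and 13.6 CPM as lowest, median and highest value, and BIBB-515 mice 15.6, 16.0 and 16.8 CPM. The treated mice lay close together, above every control, and control mouse 3 came nearest to them. Of the 11 exon intervals of Pold2 only 2 separated the groups without overlap, with mean ratios of 1.24 to 3.05 over all 11. Pold2 rose 1.49-fold, from 10.8 ± 1.98 to 16.1 ± 0.540 CPM (SD, n = 6 each), a log2 fold change of 0.58 (95% interval 0.36 to 0.79, FDR 0.00205 from the same test). Its 3' neighbor Aebp1 overlaps it, and counting reads on both genes added 2.68% to its counts. For Gadd45b, Myc, E2f1 and Pold2 alike, exact permutation of the mice (two-sided) gave p = 0.00216, the smallest that 6 mice against 6 allow.

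**Figure D2:**
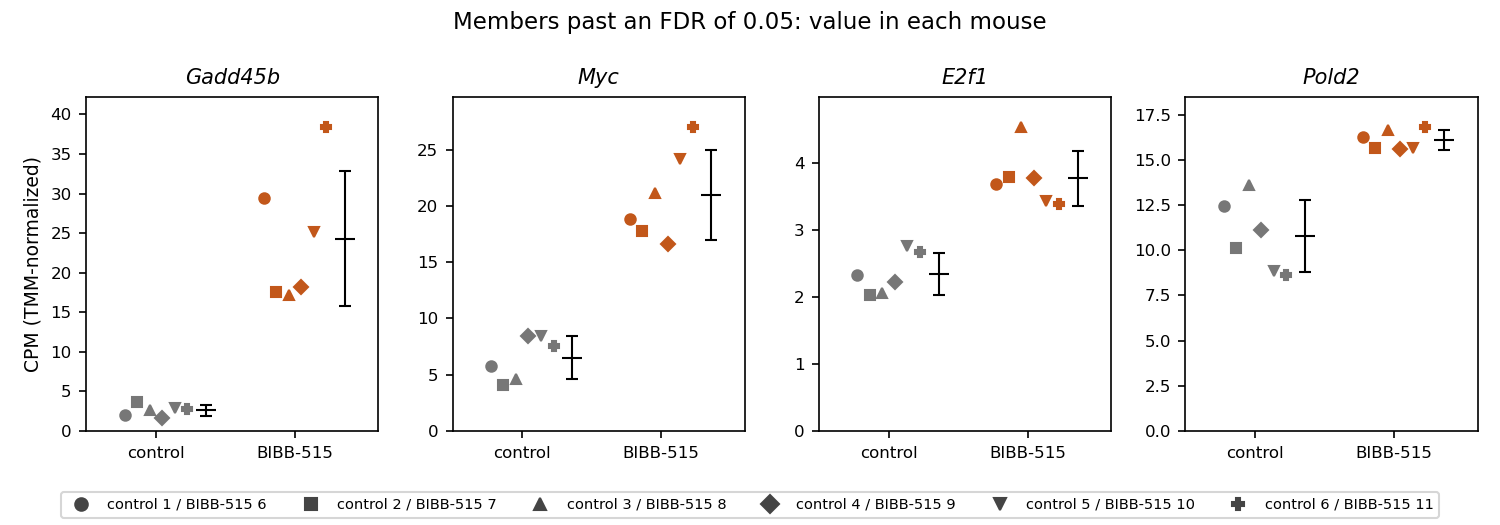
CPM of Gadd45b, Myc, E2f1 and Pold2 in each mouse (1 symbol per mouse), with mean and SD of each group in black (n = 6). Every BIBB-515 mouse lies above every control mouse, with Gadd45b from 17.1 to 38.4 CPM against 1.69 to 3.69.

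As the reference for CAR-type induction, Cyp2b10, a cytochrome P450 gene, had 7.67, 15.5 and 64.9 CPM as lowest, median and highest value in control mice and 340.1, 419 and 547 CPM in BIBB-515 mice. BIBB-515 mice 11 and 6 were highest for Cyp2b10, as they were for Gadd45b. Its log2 fold change was 3.98 (95% interval 2.98 to 4.99, FDR 7.66e-05 from the same test), higher in 6 of 6 mice.

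The cyclins and Cdk1 set the order of the cycle, and 0 of 6 tested passed edgeR's quasi-likelihood test. In so short a list this is near the 13.7% of all tested genes. At an unadjusted p under 0.05 there was 1 (16.7%, beside 29.7% of all tested genes). DESeq2, limma-voom and the likelihood ratio test called 0. The median log2 fold change of the 6 was 0.12. Ccnd1 encodes cyclin D1, which carries growth signals into the cycle, and per length it was the most abundant of the 35 tested genes described here in control mice, at 36.5 RPKM. It had 91.7, 142 and 185 CPM as lowest, median and highest value in control mice and 92.0, 105 and 138 CPM in BIBB-515 mice. All 6 BIBB-515 mice were below the control mean, yet the groups overlapped, since control mice 1 and 2 lay within the treated range and control mouse 3 just under it. The log2 fold change of Ccnd1, -0.34, was the most negative of the 35 and did not pass the same test (FDR 0.164, standard error 0.16). Other transcripts share 21.6% of its 50-base words.

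Ccna2 encodes cyclin A2 of S phase and G2. Control mice had 1.81, 2.63 and 4.58 CPM as lowest, median and highest, BIBB-515 mice 1.95, 2.87 and 4.13. The highest value was that of control mouse 5 and the lowest that of control mouse 2, so the treated mice fell inside the control range. With a log2 fold change of 0.09 (FDR 0.831 from the same test), its sign turned to -0.01 without control mouse 2, to -0.0038 without BIBB-515 mouse 6 and to -0.02 without BIBB-515 mouse 7. The sign also turned, to -0.02, in the tables that count reads on overlapping genes, which hold 157% more counts for this gene, whose neighbor Exosc9 overlaps it.

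Ccnb1 encodes cyclin B1, which starts mitosis with Cdk1. It had 0.394, 1.05 and 2.66 CPM as lowest, median and highest value in control mice and 1.18, 1.36 and 1.81 CPM in BIBB-515 mice. Control mice 4 and 5 were the highest of all 12 and control mice 1, 2 and 3 the lowest, with all treated mice between them. The log2 fold change was 0.14 (95% interval -0.68 to 0.96, FDR 0.842 from the same test), and it was -0.03 without control mouse 2 as well as without control mouse 3. It went the other way, to 0.47 and 0.38, without control mice 4 and 5, and to 0.48 with limma-voom. Other transcripts, mainly the copy Ccnb1-ps, share 23.4% of the 50-base words of Ccnb1.

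Cdk1, the kinase of mitotic entry, had 1.49, 2.64 and 4.51 CPM as lowest, median and highest value in control mice and 2.39, 3.60 and 4.50 CPM in BIBB-515 mice. Control mice 1, 2 and 3 lay below every treated mouse, while control mice 4 and 5 matched the highest treated mice. The log2 fold change of 0.27 had a 95% interval of -0.32 to 0.86 (FDR 0.558 from the same test). Ccne1 and Ccnb2, for cyclins E1 and B2, had log2 fold changes of -0.10 and 0.20. Without control mouse 5 the value of Ccne1 was 0.10, and without control mouse 3 that of Ccnb2 was -0.0013. Ccnb2 reached 0.65 without control mouse 5, 0.60 with limma-voom and 0.45 with 1 surrogate variable. Ccne2, for cyclin E2, had 7 to 21 counts in control mice and 7 to 15 in BIBB-515 mice, too few for a test here. Its neighbor Ints8 overlaps it, and the tables that count reads on both genes hold 576% more counts for Ccne2, where the log2 fold change was -0.34 (FDR 0.105 from the same test).

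The mitotic genes and proliferation markers had a median log2 fold change of 0.31. Of 8 tested, 0 passed edgeR's quasi-likelihood test, which in so short a list is near the 13.7% of all tested genes. At an unadjusted p under 0.05 there was 1 (12.5%, beside 29.7% of all tested genes). DESeq2, limma-voom and the likelihood ratio test called 0. Mki67 encodes Ki-67, the standard marker of cycling cells. Its lowest, median and highest values were 4.23, 7.05 and 12.0 CPM in control mice and 6.12, 7.55 and 9.26 CPM in BIBB-515 mice. Control mice stood at both ends, with 4 and 5 above every treated mouse and 1, 2 and 3 below every one. The log2 fold change of Mki67 was -0.05 (95% interval -0.56 to 0.47, FDR 0.919 from the same test). It turned to 0.10 without control mouse 4, to 0.11 without control mouse 5, and to 0.00 and 0.01 without BIBB-515 mice 9 and 10.

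Top2a, for the topoisomerase that untangles chromosomes, had 2.71, 4.43 and 5.95 CPM as lowest, median and highest value in control mice and 3.02, 5.42 and 7.48 CPM in BIBB-515 mice. BIBB-515 mice 6 and 7 exceeded every control, and BIBB-515 mouse 10 was down among control mice 1, 2 and 3. The log2 fold change was 0.34 (95% interval -0.17 to 0.86, FDR 0.373 from the same test). Birc5, which encodes survivin of the chromosomal passenger complex, came nearest to the threshold of this group, with 1.24, 2.48 and 3.69 CPM in control mice and 2.69, 4.00 and 4.28 CPM in BIBB-515 mice. For Birc5, 4 of 6 treated mice exceeded every control, and the log2 fold change was 0.59 (95% interval 0.06 to 1.11, FDR 0.123 from the same test). The anaphase activator Cdc20 and the kinases Plk1, Aurkb, Bub1b and Aurka had log2 fold changes of 0.54, 0.36, 0.27, 0.12 and -0.04. With a mouse left out Cdc20 ran from 0.38 to 0.88, Plk1 from 0.19 to 0.58 and Aurkb from 0.16 to 0.48, each highest without control mouse 4 or 5. Bub1b turned to -0.01 without control mouse 1, and Aurka turned positive without control mouse 4, 5 or 6 or BIBB-515 mouse 7, by at most 0.13. Bub1, the checkpoint kinase under the filter, had 4 to 19 counts in control mice and 10 to 27 in BIBB-515 mice.

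Among control mice these genes were low in the same animals, a feature chosen after its values were seen and given with no test. Control mice 1, 2 and 3 held the 3 lowest control values in 8 of 8 tested mitotic genes and in 5 of 6 cyclins with Cdk1. The same was so in 33 of 42 further mitotic genes (78.6%), against 922 of 12481 tested genes (7.39%). Among the replication genes it was so in 2 of 10, and in 0 of 4 genes of deoxynucleotide supply. Summed over the 9 mitotic genes, control mice 1, 2 and 3 had 16.4, 17.0 and 15.2 CPM and control mice 4, 5 and 6 had 36.0, 39.1 and 29.3 CPM. BIBB-515 mice 6 to 11 had 37.9, 35.3, 30.0, 22.6, 21.6 and 29.5 CPM in turn. Thus the control mice spread wider than the treated ones and on both sides of them. Library totals and the summed levels of 8 marker lists overlapped between control mice 1, 2 and 3 and control mice 4, 5 and 6, but some single markers did not. Mice 1, 2 and 3 held the 3 lowest or 3 highest control values in 5 of 44 tested markers (11.4%), beside 15.7% of all tested genes, and 3 of the 5 were among the 7 hepatocyte markers. Cps1, of the urea cycle, was at 5622 to 6665 CPM in control mice 1, 2 and 3 and at 3308 to 4121 CPM in the others. Apoa1, an apolipoprotein gene, was lower in those mice, at 9538 to 11955 against 14027 to 15156 CPM, and Ttr was lower too, at 5798 to 6134 against 6889 to 7832 CPM. The part of any of these in the pattern was not tested, nor that of the cage, which the labels do not name.

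**Figure D3:**
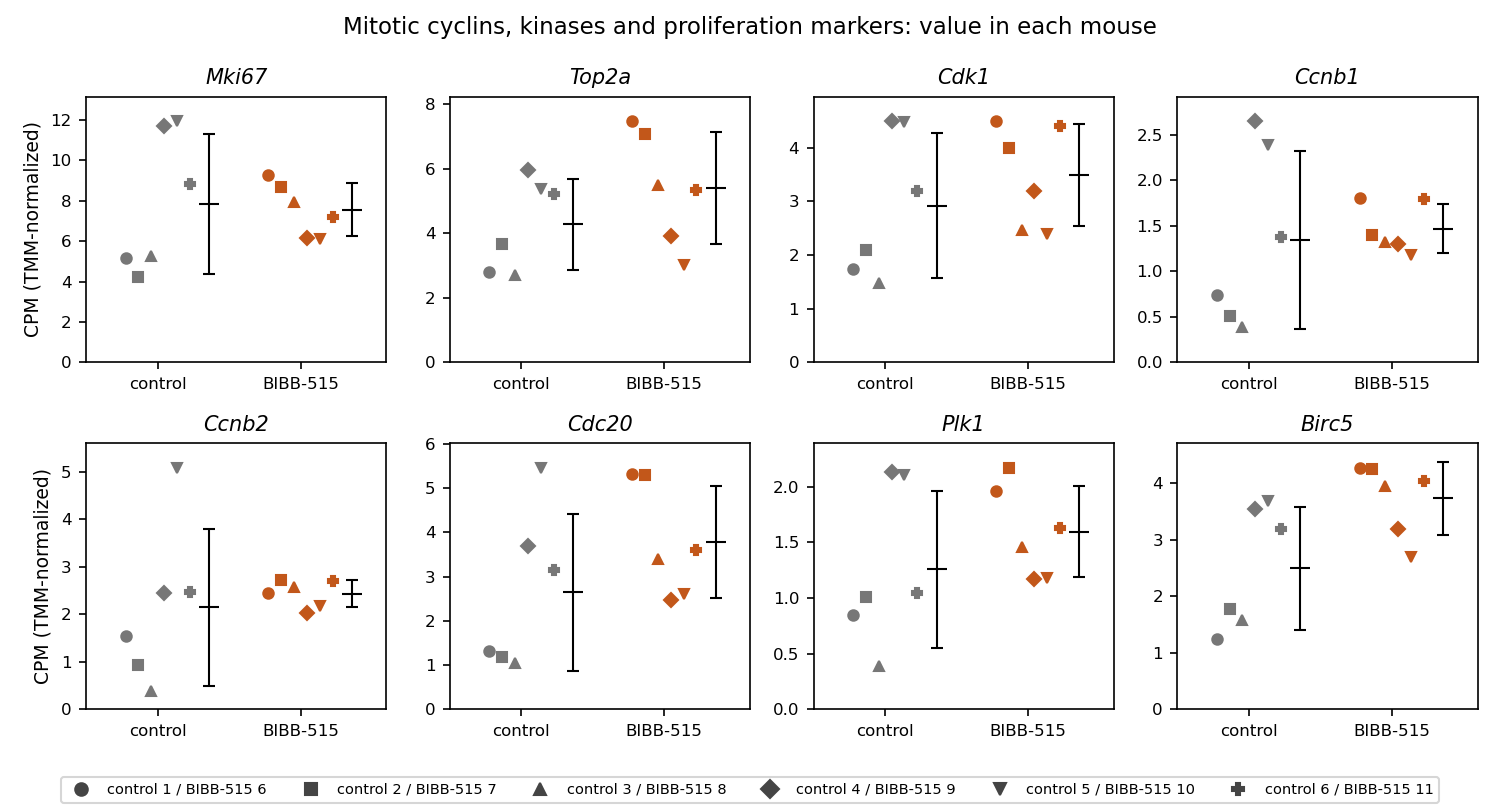
CPM of 8 mitotic genes and cyclins in each mouse (1 symbol per mouse), with mean and SD of each group in black (n = 6). Control mice 1, 2 and 3 are the 3 lowest control mice in each panel.

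The replicative helicase, the sliding clamp and the polymerases had 1 of 10 genes past the test, Pold2. This 10% is near the 13.7% of all tested genes, and the median log2 fold change of the list was 0.06. Mcm2, a helicase subunit and a licensing marker, had 2.52, 3.83 and 4.63 CPM as lowest, median and highest value in control mice and 3.76, 4.28 and 5.42 CPM in BIBB-515 mice. All treated mice were above the control mean, BIBB-515 mice 6 and 11 were highest, and control mouse 1 was lowest. Its log2 fold change was 0.25 (95% interval -0.04 to 0.55, FDR 0.236 from the same test). The other helicase subunits had small values of either sign. Mcm5 and Mcm6 had 0.13 and 0.17, Mcm7 had -0.02 and Mcm3 and Mcm4 had -0.12 and -0.18. Mcm5 was at 0.00 without control mouse 1 and Mcm6 at 0.07 without BIBB-515 mouse 11. Mcm7 turned positive, to at most 0.04, without control mouse 4, 5 or 6 or BIBB-515 mouse 7, 8 or 9, and other transcripts share 23.3% of its 50-base words.

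Pcna encodes the clamp that holds polymerases on DNA. It had 18.4, 21.2 and 26.5 CPM as lowest, median and highest value in control mice and 18.2, 21.8 and 27.4 CPM in BIBB-515 mice. The ranges coincided, with BIBB-515 mouse 11 highest and BIBB-515 mouse 8 lowest. The 95% interval of its log2 fold change was -0.23 to 0.23 (FDR 0.991 from the same test). The estimate of 0.00 changed sign without control mouse 1, 2, 5 or 6 or BIBB-515 mouse 6 or 11, and its lowest value was -0.07. Other transcripts, mainly the copy Pcna-ps2, share 19.1% of its 50-base words. Pold1, the catalytic subunit that pairs with Pold2, had a log2 fold change of -0.24 (FDR 0.185 from the same test), with 6 of 6 treated mice below the control mean. Pole, for the polymerase of the leading strand, had a value of 0.26 (FDR 0.237 from the same test).

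Deoxynucleotide supply had 0 of 4 genes past edgeR's quasi-likelihood test, which in so short a list is near the 13.7% of all tested genes. At an unadjusted p under 0.05 there was 1 (25%, beside 29.7% of all tested genes). DESeq2, limma-voom and the likelihood ratio test called 0, and the median log2 fold change was 0.08. Rrm2, the S-phase subunit of ribonucleotide reductase, had 12.0, 15.3 and 24.5 CPM as lowest, median and highest value in control mice and 8.10, 18.4 and 30.1 CPM in BIBB-515 mice. Both the highest and the lowest mouse were treated ones, BIBB-515 mice 11 and 8. Its log2 fold change was 0.16 (FDR 0.738 from the same test), and -0.02 without BIBB-515 mouse 11. Tk1, the S-phase thymidine kinase, was above the control mean in 6 of 6 treated mice, with a log2 fold change of 0.30 (95% interval 0.03 to 0.56, FDR 0.125 from the same test). Without control mouse 5 it passed, at 0.39 (FDR 0.0340 from the same test). It also passed with 1 surrogate variable as covariate, at 0.33 (FDR 0.0120 from the same test). Afmid overlaps Tk1, and counting reads on both genes added 10.5% to its counts. Rrm1, the constant subunit of the reductase, had -0.16 (FDR 0.216 from the same test) and passed only without control mouse 1, at -0.22 (FDR 0.0331). Tyms, for thymidylate synthase, had 0.01, and it was negative, to -0.03, without control mouse 1, 2 or 6 or BIBB-515 mouse 10.

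Among the p53 and stress response genes Gadd45b alone passed, 1 of 4 (25%, beside 13.7% of all tested genes). The list is too short to set apart from that share. Its median log2 fold change was 0.34, beside -0.01 over all tested genes. Cdkn1a encodes p21, the inhibitor that halts cyclin-dependent kinases. It had 4.53, 16.1 and 23.3 CPM as lowest, median and highest value in control mice and 5.92, 15.5 and 46.2 CPM in BIBB-515 mice. BIBB-515 mice 6 and 11 stood far above every other mouse, while BIBB-515 mouse 8 and control mouse 1 were lowest. The log2 fold change of Cdkn1a was 0.54 (95% interval -0.44 to 1.52, FDR 0.464 from the same test). It was 0.25 without BIBB-515 mouse 6, 0.22 without BIBB-515 mouse 11, 0.35 without control mouse 1 and 0.36 with limma-voom. Mdm2, the ubiquitin ligase that p53 induces against itself, had 25.6, 26.5 and 30.3 CPM as lowest, median and highest value in control mice and 24.9, 28.7 and 30.6 CPM in BIBB-515 mice. Its ranges coincided, and the log2 fold change was 0.05 (95% interval -0.09 to 0.18, FDR 0.681 from the same test). Ccng1, for cyclin G1, another p53 target, had 33.0, 34.9 and 37.8 CPM in control mice and 36.5, 39.1 and 40.3 CPM in BIBB-515 mice. The treated mice were all above the control mean and 4 of 6 above every control, by a log2 fold change of 0.14 (FDR 0.112 from the same test). The two-sided exact permutation test, not adjusted for the number of genes, gave p = 0.0152 for Ccng1 and p = 0.0476 for Tk1.

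Other genes of the same pathways came from 5 lists with 172 genes, of which 154 were tested and 20 passed (13.0%), 12 higher and 8 lower, near the 13.7% of all tested genes. This count depended on single mice, with 13 past the test without control mouse 4, BIBB-515 mouse 6 or BIBB-515 mouse 9, 11 without BIBB-515 mouse 10 and 10 without BIBB-515 mouse 11. For each of them named below, 6 of 6 treated mice lay on the same side of the control mean. In replication 6 of 43 rose and 1 fell (16.3%, beside the same 13.7%), with a median log2 fold change of 0.08. Gmnn, for geminin, the inhibitor of repeated licensing, rose from 10.5 ± 0.940 to 17.5 ± 1.48 CPM (SD, n = 6 each), with no overlap, and its log2 fold change was 0.74 (FDR 2.79e-05 from the same test). Lig1, the ligase that joins Okazaki fragments, rose by 0.57 (FDR 0.0192 from the same test), and Pold4, the small subunit of polymerase delta, by 0.34 (FDR 0.00619). Timeless, a protein of the replication fork, fell by 0.41 on the log2 scale, without overlap (FDR 0.00954 from the same test). The summed level of the 48 further replication genes was 409.7 to 417 CPM in control mice and 419 to 462 CPM in BIBB-515 mice. The groups did not overlap in this description, with means of 412 and 435 CPM. Genes already called held much of that difference, namely Gmnn, Pold4 (21.1 to 26.7 CPM) and Lig1 (5.39 to 8.01 CPM). Of the 43 tested genes of the list, 29 had positive values. The 10 replication genes of the main list did overlap, at 72.7 to 93.1 and 81.8 to 102 CPM.

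**Figure D4:**
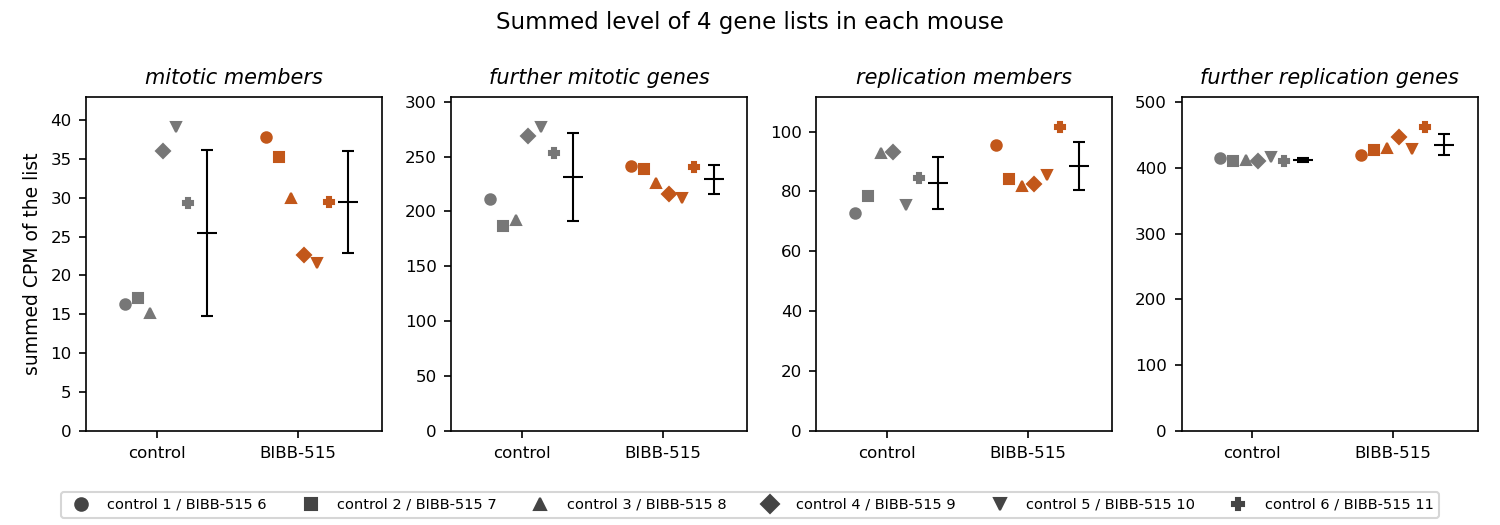
Summed CPM of 4 gene lists in each mouse (1 symbol per mouse), with mean and SD of each group in black (n = 6). The further replication genes lie at 409.7 to 417 CPM in control mice and at 419 to 462 CPM in BIBB-515 mice, while the other 3 lists overlap. Gmnn, Pold4 and Lig1, called singly, hold much of that difference.

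Of the further mitotic genes, 1 of 42 rose and 1 fell (4.76%, below the 13.7% of all tested genes), and the median log2 fold change was 0.22. Ccnf, for cyclin F, which is part of a ubiquitin ligase, fell by 0.80 on the log2 scale (FDR 0.00194 from the same test), and every treated mouse lay under every control. Cks1b, a small partner of cyclin-dependent kinases, rose by 0.52 (FDR 0.0269 from the same test) with no overlap. Its call was lost without control mouse 1 or BIBB-515 mouse 8, 9 or 11, where the FDR reached 0.0590 in the same test.

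Among the other regulators of the cycle, 2 of 28 rose and 2 fell (14.3%, beside 13.7% of all tested genes), with a median log2 fold change of -0.03. E2f3, a sister of E2f1 that also activates S-phase genes, rose from 9.48 ± 0.651 to 13.1 ± 1.15 CPM (SD, n = 6 each), a log2 fold change of 0.46 (FDR 0.00116 from the same test) with no overlap. E2f8, a repressor of E2F targets tied to polyploidy of hepatocytes, fell by 1.51 on the log2 scale (FDR 0.0144 from the same test). Its values were 5.99, 23.5 and 30.6 CPM as lowest, median and highest in control mice and 3.84, 6.89 and 12.3 CPM in BIBB-515 mice. For E2f8 control mouse 3 was within the treated range, control mouse 2 just above it and the other 4 well above. Fzr1, an activator of the anaphase-promoting complex, rose by 0.29 (FDR 0.0112 from the same test) with no overlap. Cdk2, the kinase partner of cyclins E and A, fell by 0.28 on the log2 scale (FDR 0.0460 from the same test). When mice were left out singly, Cdk2 kept its call only without control mouse 1, and it lost it with upper-quartile scaling, limma-voom and both looser filters.

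The further p53 and damage response genes had 2 of 25 higher and 2 lower (16%, beside 13.7% of all tested genes), with a median log2 fold change of 0.01. Gadd45a, the stress-inducible relative of Gadd45b, rose from 1.82 ± 0.645 to 3.47 ± 0.898 CPM (SD, n = 6 each), a log2 fold change of 0.93 (FDR 0.0200 from the same test) with 6 of 6 mice above the control mean. A neighbor overlaps Gadd45a, and counting reads on both added 53.9% to its counts. Perp, a membrane protein gene that p53 activates, fell by 0.39 on the log2 scale (FDR 0.00889 from the same test). Sesn2, of the stress-responsive sestrins, rose by 0.42 (FDR 0.0351 from the same test), and kept its call only without control mouse 2 or 3 or BIBB-515 mouse 7. Polk, a translesion polymerase, fell by 0.27 on the log2 scale (FDR 0.0324 from the same test), and kept its call only without control mouse 2, 3 or 5 and not with looser filters. Immediate early growth genes had 1 of 16 higher, Btg1, and 2 lower, Mycn and Max (18.8%, beside 13.7% of all tested genes). The median log2 fold change of that list was 0.06. Mycn, a relative of Myc, fell by 1.77 on the log2 scale (FDR 0.0312 from the same test), from 15 to 58 counts in control mice to 1 to 24 in BIBB-515 mice. That call was lost without control mouse 4, 5 or 6 or BIBB-515 mouse 6, 9, 10 or 11, with an FDR of at most 0.0661 in the same test. Max, the partner that Myc binds DNA with, fell by 0.24 on the log2 scale (FDR 0.0492 from the same test) and kept its call only without control mouse 1 or 2 and in 4 of 10 other settings. The antiproliferative gene Btg1 rose by 0.30 (FDR 0.0365 from the same test) and kept its call only without control mouse 3, 5 or 6 or BIBB-515 mouse 8 or 9.

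Markers show which cells the RNA came from. Hepatocyte markers had 3 of 7 tested lower (beside 6.48% of all tested genes) and 0 higher in edgeR's quasi-likelihood test, with 4 lower at an unadjusted p under 0.05 (57.1%, beside 29.7% of all tested genes). These were Ttr at -0.49, Alb at -0.40 and Fgb at -0.33 on the log2 scale, genes of secreted plasma proteins, each lower in 6 of 6 mice than the control mean. With no filter the call of Alb was lost (FDR 0.0591 from the same test). The Fgb call held only without control mouse 2, 3 or 4 among the fits that left out a mouse, and not with looser filters. The summed hepatocyte markers were 144633 to 162956 CPM in control mice and 109731 to 124557 CPM in BIBB-515 mice, without overlap. Alb held most of that sum, on average 120094 of 153751 CPM in control mice and 90923 of 119066 CPM in BIBB-515 mice. Apoa1 at -0.27, Hnf4a at -0.15, Cps1 at -0.09 and Apob at -0.06 did not pass, and 0 of the 7 tested markers had positive values. Stellate cell markers had 2 of 7 lower (28.6%, beside 6.48% of all tested genes) and 2 of 7 with positive values, none past the test. The lower ones were Lrat at -0.81, for the enzyme that stores vitamin A, and Dcn at -0.27, for decorin and the most abundant of the list per length. Their sum was 322 to 444 CPM in control mice and 319 to 409.98 CPM in BIBB-515 mice, and the Dcn call held only without control mouse 2 or 5 or BIBB-515 mouse 6 or 11, and not with upper-quartile scaling or looser filters. The part of either list in the results above was not tested.

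Leukocyte markers had 7 of 10 tested and 0 called by edgeR's quasi-likelihood test, 0 at an unadjusted p under 0.05 and 0 by DESeq2, limma-voom or the likelihood ratio test, led by Lyz2, with sums of 79.2 to 121 CPM in control and 62.8 to 114 CPM in BIBB-515 mice. Kupffer cells, led by Cd5l, gave 7 tested and again 0 in each of these counts, with sums of 376 to 624 and 386 to 645 CPM. Endothelial markers, led by Clec4g, gave 8 tested and the same 0, with sums of 268 to 352 and 245 to 329.7 CPM. Bile duct markers had 0 of 6 in the quasi-likelihood test and 1 at an unadjusted p under 0.05, with sums of 63.3 to 117 and 92.9 to 155 CPM. Spp1, for osteopontin, held most of that sum, 82.6 of 93.3 CPM on average in control mice, and had a log2 fold change of 0.44 (FDR 0.0664 from the same test). It was called by DESeq2 (FDR 0.0324) and by edgeR's likelihood ratio test (FDR 0.0386), and by the quasi-likelihood test without control mouse 6 (FDR 0.0399) or BIBB-515 mouse 7 (FDR 0.0362) or with 1 surrogate variable. Of the 6 bile duct markers, 4 had positive values and 2 negative ones. Red cell precursors had Alas2 as the 1 tested of 8 markers, and sums of 9.83 to 15.8 and 9.39 to 13.7 CPM. The globin genes Hbb-bt, Hbb-bs, Hba-a1 and Hba-a2 were at 0 counts in all mice, but each lies on another annotated globin gene and reads on several genes were dropped, so these zeros say nothing about red cells. With such reads kept, Hbb-bs had 61.4 to 161 CPM in control and 43.2 to 91.9 CPM in BIBB-515 mice. Of 6 fat cell markers Fabp4 was the 1 tested and Lep was at 0 in all mice, with sums of 6.82 to 11.3 and 6.96 to 11.6 CPM. The part of these cells in the results above was not tested.

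Promoters of these genes share letters that the choice of genes did not use. RefSeq windows of 300 bases around the gene start (GRCm38.p6) were found for 29 of the 37 genes, and not for Ccnd1, Ccne2, Ccna2, Aurkb, Foxm1, Myc, Mcm4 and Pole. The motifs searched on both strands were the CCAAT box (CCAAT), the CHR or cell cycle homology region (TTTGAA or TTTAAA), and an E2F motif (TTT, then 2 bases that are each C or G, then CGC). Windows of all 27025 genes held the CCAAT box in 41.1%, the CHR in 30.6%, both in 13.4% and the E2F motif in 2.6%. Among the 29 genes the shares were 75.9%, 58.6%, 48.3% and 20.7%. Both CCAAT and CHR were in 6 of 8 mitotic genes and 3 of 4 cyclins with Cdk1, and in 3 of 8 replication genes, Mcm2, Mcm5 and Pold2. The E2F motif was in 5 of 8 replication genes, Mcm3, Mcm5, Mcm6, Mcm7 and Pold1, in Cdk1 and in 0 of 8 mitotic genes. Of the further mitotic genes 64.1% held both CCAAT and CHR, and of the further replication genes 12.8% did and 41% held the E2F motif.

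The windows from 150 bases before to 10 bases after the start are shown for Ccnb2, Cdk1 and Plk1, which were low together in control mice 1, 2 and 3, and for Gadd45b, which rose most. They are Ccnb2 at chr9:70421545-70421704 (minus strand), Cdk1 at chr10:69352903-69353062 (minus strand), Plk1 at chr7:122159285-122159444 (plus strand) and Gadd45b at chr10:80929941-80930100 (plus strand), from RefSeq, GRCm38.p6. Capitals mark the CCAAT box, the CHR and the E2F motif in either orientation. Ccnb2 has CCAAT at -87, -54 and -21 from the start. Gadd45b has CCAAT at -139 and -100 and no CHR or E2F letters in this window. A match is a description of letters.
Ccnb2: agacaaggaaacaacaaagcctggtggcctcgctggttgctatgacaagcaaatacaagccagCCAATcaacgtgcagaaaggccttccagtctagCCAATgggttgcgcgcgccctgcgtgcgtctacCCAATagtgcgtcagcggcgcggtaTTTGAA
Cdk1: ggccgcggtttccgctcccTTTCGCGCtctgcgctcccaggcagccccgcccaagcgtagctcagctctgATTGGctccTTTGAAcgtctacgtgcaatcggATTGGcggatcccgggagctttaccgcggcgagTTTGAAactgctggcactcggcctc
Plk1: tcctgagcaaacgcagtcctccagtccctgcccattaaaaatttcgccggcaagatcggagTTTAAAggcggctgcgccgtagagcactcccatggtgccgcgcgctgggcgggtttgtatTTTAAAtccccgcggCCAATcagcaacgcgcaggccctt
Gadd45b: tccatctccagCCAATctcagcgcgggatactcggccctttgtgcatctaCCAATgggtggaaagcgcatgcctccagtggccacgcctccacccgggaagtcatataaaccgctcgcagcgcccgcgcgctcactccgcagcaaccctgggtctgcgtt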

How the data were processed

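Liver RNA-seq of 12 mice was measured, and for each mouse the authors deposited counts of reads per gene, per exon and per gene from primary alignments, made per the file headers with featureCounts (Subread 1.6.3) on UCSC genes of mm10, without strand and, for genes, without reads on several places or genes. STAR 2.5.3a is named in the processing notes. Transcript tables were not used here.

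Counts per gene were TMM-normalized and tested with edgeR 4.0.16 (quasi-likelihood) under R 4.3.3, diet being the single factor, for genes that reached 1 CPM in 2 or more of 12 mice, adjusted by Benjamini-Hochberg over 12481 genes. Single genes were also compared by two-sided exact permutation over 924 labelings of log2(CPM + 0.1). The common coefficient of variation was 0.143. In counts simulated with these dispersions, the test found 94.9% of genes with a 2-fold change. Of its calls 5.34% were false (DESeq2 14.4%, likelihood ratio test 13.9%). The simulation changed far fewer genes than passed here and pooled genes of all levels. Its shares therefore do not carry over to these data, nor to genes with low counts and wide errors, such as Ccnb1 (standard error 0.38).

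Alternatives were other size factors, upper-quartile scaling, DESeq2 1.42.0, limma-voom (limma 3.58.1), edgeR's likelihood ratio test, other filters, primary alignments, 1 surrogate variable (sva 3.50.0) and each mouse left out. The genes and lists were chosen with earlier results of these data known. Named are all 37 genes, at most the 4 genes with lowest p among those past the test in each pathway list, the same and the most abundant gene in each marker list, and Cyp2b10. Cps1, Apoa1, Apob, Hnf4a and Mcm10 are named outside this rule, after their values were seen, and marker genes at 0 are named as such.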

Additional observations from a re-analysis of the deposited data

Results flagged for a closer look

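Among 172 groups of 6 values examined, the gap between the most extreme mouse and its neighbor passed Dixon's critical share of the group's range in 7, and chance gives about 1 in 20, or 8.6. E2f1 was high in BIBB-515 mouse 8 (4.53 against 3.79 CPM for the next mouse, gap 0.652 of the range). Mcm4, a helicase subunit, was low in BIBB-515 mouse 9 (3.68 against 4.75 CPM, gap 0.636). In control mouse 1 the helicase subunit Mcm5 was low (1.90 against 3.29 CPM, gap 0.665), and so was Rrm1 of ribonucleotide reductase (9.68 against 12.4 CPM, gap 0.634). Tyms, for thymidylate synthase, was high in control mouse 4 (10.2 against 7.85 CPM, gap 0.641) and low in BIBB-515 mouse 8 (6.92 against 7.69 CPM, gap 0.671). The summed leukocyte markers were high in control mouse 6 (121 against 94.0 CPM, gap 0.65).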

How the results depend on the processing

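Gadd45b, Myc, E2f1 and Pold2 passed the test in all 22 alternative fits. The genes past the test numbered 1489 to 2442 with other settings and 1200 to 1868 when a mouse was left out, and those of the 37 genes 4 to 5 in either case. Further pathway genes past the test numbered 16 to 25 with other settings and 10 to 23 with a mouse left out. Markers of other cells past the test, 2 at first, numbered 1 with upper-quartile normalization, with no filter and with at least 10 counts over all samples, 3 (1 of them higher) with DESeq2, with the likelihood ratio test and with 1 surrogate variable, and 1 to 3 with a mouse left out; the cause was not tested.

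Signs turned for Ccna2 with primary alignments (-0.0195), Mki67 with limma-voom (0.0796), Aurka with limma-voom (0.0556) and with 1 surrogate variable (0.0384), and Pcna with 1 surrogate variable (-0.008); the cause was not tested. With a mouse left out, log2 fold changes spanned 0 for Ccne1 (-0.24 to 0.10), Ccna2 (-0.0201 to 0.28), Ccnb1 (-0.0346 to 0.47), Ccnb2 (-0.0013 to 0.65), Mki67 (-0.18 to 0.11), Aurka (-0.16 to 0.13), Bub1b (-0.0112 to 0.27), Mcm7 (-0.0659 to 0.037), Pcna (-0.0654 to 0.0667), Rrm2 (-0.0212 to 0.31), Tyms (-0.0318 to 0.11) and Lyz2 (-0.17 to 0.0478). Without a change of sign, values moved by over 1.5 times for Cdk1 (0.15 to 0.44), Top2a (0.22 to 0.46), Cdc20 (0.38 to 0.88), Plk1 (0.19 to 0.58), Aurkb (0.16 to 0.48), Foxm1 (0.04 to 0.36), Mcm2 (0.16 to 0.33), Mcm3 (-0.20 to -0.05), Mcm4 (-0.21 to -0.11), Mcm5 (0.00 to 0.22), Mcm6 (0.07 to 0.23), Pold1 (-0.30 to -0.16), Cdkn1a (0.22 to 0.74) and Mdm2 (0.02 to 0.08). The same held for the markers Cd5l (0.0406 to 0.3436), Clec4g (-0.1521 to -0.063), Fabp4 (0.0134 to 0.1788) and Alas2 (-0.2227 to -0.075). With other settings such moves included Ccne1 (-0.01 with limma-voom, -0.03 with 1 surrogate variable), Ccnb1 (0.48 with limma-voom) and Ccnb2 (0.60 with limma-voom, 0.45 with 1 surrogate variable). Of the other values for single genes, 647 kept sign and side of the threshold, 18 lost the call and 4 gained it with other settings, and 655, 74 and 4 with a mouse left out. Max lost its call with 6 settings, among them other size factors, upper-quartile scaling and limma-voom; Cdk2 lost its call with 4 (upper-quartile scaling, limma-voom, no filter, at least 10 counts), Dcn with 3 (the same but limma-voom), Fgb and Polk with 2 (no filter, at least 10 counts) and Alb with 1 (no filter).

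The groups are different mice, so there was nothing to pair, and the replicate number 6 in both groups is only a label. The counts are unstranded, so overlapping genes lose or share reads. Genes that varied between mice have wide intervals, such as Cdkn1a (-0.44 to 1.52), and a missed threshold does not show that such a gene was unchanged. Ccne2 without a filter had -0.55 (FDR 0.254 from the same test) and Bub1 0.41 (FDR 0.482).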

Other observations

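Counts of Mcm10, a replication initiation factor, lay mostly at the end of the gene. Its last 5 of 20 exon intervals held 88.7% of the summed exon CPM in control mice and 90.7% in BIBB-515 mice. This gene was picked after its values were seen, and the cause was not tested.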
